A study of Capra hircus with 9 samples.

Results

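The miR-125 microRNAs of the goat mammary gland were followed through late lactation, the dry period and late gestation. All rows of the count table whose names begin with chi-miR-125a or chi-miR-125b were taken, which gave 4 of the 1359 listed miRNAs: chi-miR-125a-5p, chi-miR-125a-3p, chi-miR-125b-5p and chi-miR-125b-3p. All 4 passed the filter on low values, as did 696 miRNAs in all. A miRNA hairpin is cut into a duplex whose strands are called the 5p and the 3p arm after the side of the hairpin they come from. 1 arm is usually loaded into an Argonaute protein as the guide that represses target mRNAs, and the other is usually degraded.

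miR-125 is the vertebrate counterpart of lin-4 of the nematode, the first miRNA to be described, and its 5p arm is the usual guide. In mammals, miR-125 genes lie in clusters with members of the let-7 and miR-99/miR-100 families. The 5p arms of miR-125a and miR-125b have the same seed, the stretch near the 5′ end that pairs with targets. miR-125b is known for its abundance in fibroblasts, other stromal cells and stem cells, and for its effects on survival and differentiation.

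The samples were mammary glands of 9 Laoshan dairy goats (Capra hircus), about 4 years old and in the same parity, taken after slaughter from the same udder side. Each of the 3 stages had 3 goats and 1 small RNA library per goat: 240 days after birth for late lactation (LL), 300 days after birth for the dry period (DP), and day 140 of pregnancy, counted from mating, for late gestation (LG). The stage was the only difference between groups that the labels gave, and no other treatment or genotype was named. The material was whole tissue, although 1 label field called it a mammary cell, and in whole tissue fewer cells of a type and less RNA per cell cannot be told apart. The p-values measure the spread between goats.

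The counts of a library summed to between 13672653 and 34378995, so that 3 counts, the limit that a count of 0 allows, corresponded to 0.0873 to 0.219 CPM (a miRNA's counts relative to the library's total), for counting error only. chi-miR-148a-3p took 48.4% to 59.4% of the counts in LL, 8.81% to 10.8% in DP and 39.4% to 44.6% in LG. The libraries were therefore scaled with edgeR's TMM method, and levels are given as TMM-scaled CPM. The quasi-likelihood test of edgeR was run on all 696 miRNAs, and a difference was called at an adjusted p-value (Benjamini-Hochberg) under 0.05 with an absolute log2 fold change above 1. The comparisons DP vs. LL and DP vs. LG share the DP libraries.

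The table of RefSeq genes of the goat assembly ARS1.2, the build of the study, placed the hairpin of miR-125b (MIR125B) on chromosome 1 from 18991780 to 18991862, within the long noncoding RNA gene LOC102176916. The hairpins of let-7c (MIRLET7C, 19042327 to 19042434) and miR-99a (MIR99A, 19043079 to 19043159) lay within the same gene, 50464 and 51216 bases from MIR125B. The table gave no exons, so whether the hairpins were exonic or intronic was not determined. In other mammals, identical miR-125b-5p comes from a second gene, beside let-7a and miR-100, and reads of a shared mature sequence cannot be assigned to either gene. The goat hairpins of let-7a (MIRLET7A) and miR-100 (MIR100) were on chromosomes 5 and 15. miR-125a lies beside miR-99b and let-7e in other mammals, and the goat hairpins of those neighbours, MIR99B and MIRLET7E, were on chromosome 18, 85 bases apart (58704941 to 58705010 and 58705096 to 58705204). No gene of chi-miR-125a was matched by name.

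Both guide arms were highest in the dry period. chi-miR-125b-5p was about 4-fold higher in DP than in LL and almost 5-fold higher than in LG, and chi-miR-125a-5p was about 2.6-fold and 4.3-fold higher. The passenger arm chi-miR-125b-3p did not pass the test in either comparison, and chi-miR-125a-3p, with few counts, stayed under the fold limit. In DP vs. LL, 2 of the 4 miR-125 arms were called, both higher in DP, while 26.7% of all miRNAs tested were called (105 higher and 81 lower). In DP vs. LG, 2 of 4 were called, both higher in DP, while 31.5% of all were (150 higher and 69 lower). In LL vs. LG, edgeR called 0 of 4, as did DESeq2 and limma-voom, while edgeR called 12.8% of all. At an unadjusted p under 0.05, 1 of the 4 differed between LL and LG, beside 230 of all 696 (33%). The median log2 fold change of the 4 arms was 1.1, 1.53 and 0.19 in DP vs. LL, DP vs. LG and LL vs. LG, against 0.12, 0.18 and 0.17 over all 696.

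chi-miR-125b-5p, the most abundant arm, had 8784, 10485 and 11262 CPM in the DP goats. Its levels were 1893, 2785 and 3015 CPM in the LL goats and 2051, 1846 and 2332 CPM in the LG goats. Every DP library was thus far above every other library, while the LL and LG libraries overlapped. The mean level was 10177 ± 1267 CPM (SD, n = 3) in DP, 2564 ± 593 in LL and 2076 ± 244 in LG. The log2 fold change was 1.99 (SE 0.23) for DP vs. LL, with an edgeR adjusted p of 0.000292. For DP vs. LG it was 2.29 (SE 0.24), with an edgeR adjusted p of 0.000134. The difference between LL and LG was within the spread of the libraries (log2 fold change 0.30, SE 0.23, edgeR adjusted p = 0.389), and it was -0.27 on library size alone. Among the 1359 miRNAs, chi-miR-125b-5p ranked 20th by mean CPM on library size alone in DP, 32nd in LL and 39th in LG. It held 1.05% ± 0.0911 of the counts in DP, 0.208% ± 0.0599 in LL and 0.251% ± 0.0424 in LG (SD, n = 3).

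chi-miR-125a-5p, the guide arm of the related hairpin, had 3020, 3095 and 3916 CPM in the DP goats. It reached 951, 1577 and 1391 CPM in the LL goats, as against 848, 805 and 657 CPM in the LG goats. The order of the stages was DP, LL, LG, and no library of a stage overlapped those of another. On library size alone, however, LL (709 to 1451 CPM) and LG (844 to 972 CPM) overlapped. The TMM-scaled mean was 3343 ± 497 CPM (SD, n = 3) in DP, 1306 ± 321 in LL and 770 ± 99.9 in LG. The log2 fold change was 1.36 (SE 0.24, edgeR adjusted p = 0.00243) for DP vs. LL and 2.12 (SE 0.25, edgeR adjusted p = 0.000209) for DP vs. LG. The step from LG to LL was not called (log2 fold change 0.76, SE 0.24, edgeR adjusted p = 0.0537), although the libraries did not overlap. All 18 alternatives gave a smaller value (0.21 to 0.74), with 0.21 on library size alone, 0.43 without LG replicate 3 and 0.45 without LL replicate 2. Such separation was common: 1 of the 4 arms and 48.4% of all miRNAs tested had no overlap in LL vs. LG. In DP vs. LL, 3 of the 4 arms had none, beside 41.2% of all, and in DP vs. LG 3 of 4, beside 44.7%. By mean CPM on library size alone, chi-miR-125a-5p ranked 33rd in DP, 53rd in LL and 56th in LG.

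**Figure D1:**
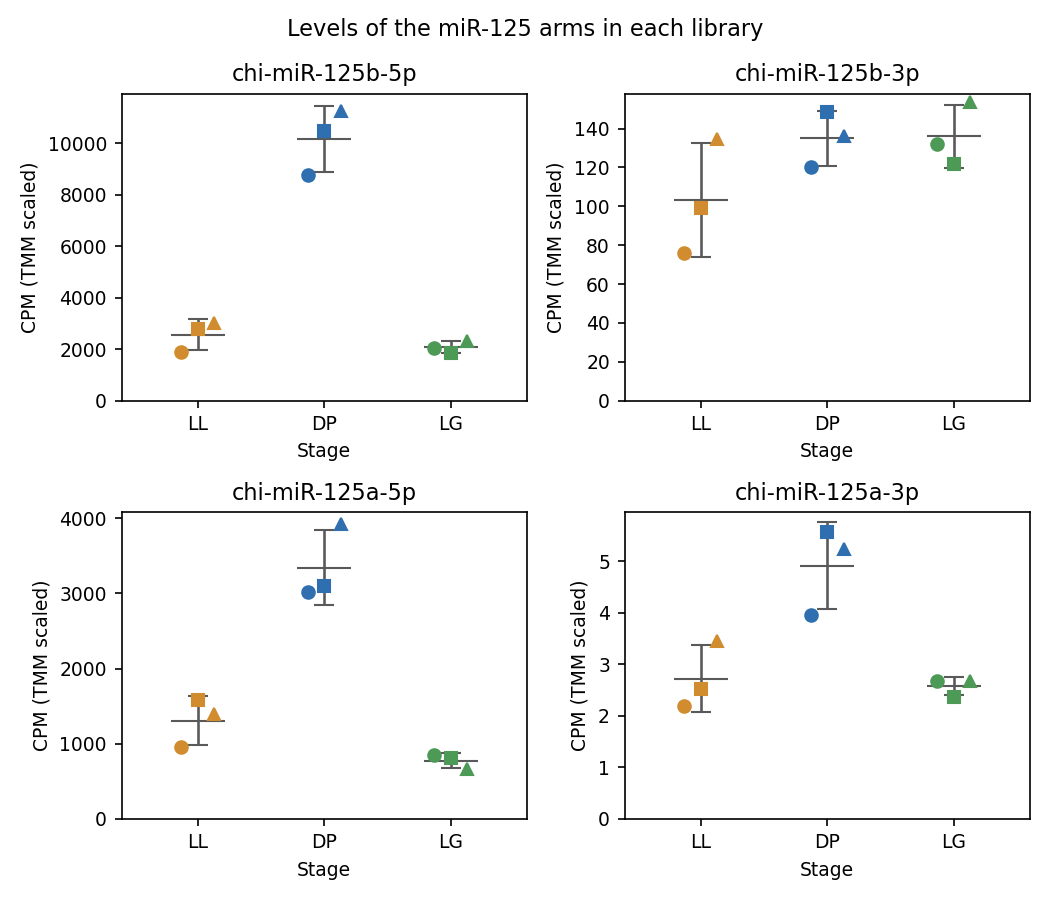
Level of each miR-125 arm (TMM-scaled CPM, linear axes that start at 0 and differ in range) in each library of LL, DP and LG. Circles, squares and triangles are replicates 1, 2 and 3, long bars are means and whiskers are SD (n = 3); both 5p arms and chi-miR-125a-3p had every DP library above all others, and chi-miR-125b-3p did not.

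chi-miR-125b-3p, the passenger arm of the miR-125b hairpin, reached 120, 148 and 136 CPM in DP. The LL goats had 76.0, 99.4 and 135 CPM of it, and the LG goats 132, 122 and 154 CPM. The DP libraries overlapped those of both other stages. The means were 135 ± 14.1 CPM (SD, n = 3) in DP, 103 ± 29.5 in LL and 136 ± 16.4 in LG. With 969 to 6790 counts per library, this arm was well measured. Its log2 fold change was 0.38 (SE 0.26, edgeR adjusted p = 0.295) for DP vs. LL and -0.01 (SE 0.26, edgeR adjusted p = 0.972) for DP vs. LG. In the alternatives these values were 0.28 to 0.74 and -0.38 to -0.008, and none was called. The highest DP vs. LL value was on library size alone (edgeR adjusted p = 0.0625), and the lowest DP vs. LG value was with no filter. For LL vs. LG the log2 fold change was -0.40 (SE 0.26, edgeR adjusted p = 0.327). In the alternatives this value was -0.42 to -0.99 and not called, with -0.75 without LL replicate 3 and -0.99 on library size alone (edgeR adjusted p = 0.0356, under the fold limit).

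chi-miR-125a-3p was the rarest arm, with 28, 38 and 64 counts in the LL libraries, 63, 121 and 120 in DP, and 78, 60 and 118 in LG. Scaled to the library, this was 4.92 ± 0.849 CPM (SD, n = 3) in DP, 2.72 ± 0.655 in LL and 2.57 ± 0.176 in LG. All DP libraries were above the others, and LL and LG overlapped. For DP vs. LL the log2 fold change was 0.85 (SE 0.32, edgeR adjusted p = 0.0690). For DP vs. LG it was 0.93 (SE 0.32, edgeR adjusted p = 0.0415), under the limit on the fold change. In the alternatives this DP vs. LG value was 0.57 to 0.94, with the lowest with no filter (edgeR adjusted p = 0.308). On library size alone, the change from LL to DP was 1.21 and called. The LL vs. LG value of 0.08 (SE 0.32, edgeR adjusted p = 0.905) changed sign in 15 of 18 alternatives and gives no order of these stages.

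The ratio of the arms was then compared within each library, which does not depend on how libraries are scaled. Where a second gene gives the same miR-125b-5p, its reads are in the 5p count too, so the ratio of miR-125b is that of the counts of the 2 named arms and does not show how the strands of 1 hairpin moved. That ratio differed between the stages. In the DP goats, 73.1, 70.7 and 82.6 reads of chi-miR-125b-5p were counted per read of chi-miR-125b-3p. There were 24.9, 28.0 and 22.4 in the LL goats and 15.5, 15.2 and 15.2 in the LG goats. The order was DP, LL, LG, with no overlap between stages and little spread within them. How many of the other hairpins were separated in this way was not counted. The 3p arm accordingly made up 1.31% ± 0.10 of the reads of both arms in DP, 3.86% ± 0.415 in LL and 6.15% ± 0.0751 in LG (SD, n = 3).

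The change of the log2 ratio was tested with limma over the 129 hairpins with both arms tested. For miR-125b it was 1.59 in DP vs. LL (SE 0.19, 95% interval 1.18 to 2.00, limma adjusted p = 0.000152). In DP vs. LG it was 2.30 (SE 0.19, 95% interval 1.89 to 2.71, limma adjusted p = 1.91e-06). The ratio of the counts of the 2 arms was thus 3.01-fold and 4.93-fold higher in DP, with the genes that gave the 5p reads not told apart. The LL vs. LG change of 0.71 (SE 0.19, 95% interval 0.30 to 1.12, limma adjusted p = 0.157) was not called.

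The ratio of miR-125a was higher throughout and more variable. Per read of chi-miR-125a-3p, there were 764, 557 and 748 reads of chi-miR-125a-5p in DP, 433, 628 and 403 in LL, and 317, 340 and 246 in LG. DP and LL overlapped, and LG was below both. The log2 ratio changed by 0.52 in DP vs. LL (SE 0.30, 95% interval -0.13 to 1.18, limma adjusted p = 0.206), and so was not called. In DP vs. LG it rose by 1.20 (SE 0.30, 95% interval 0.54 to 1.85, limma adjusted p = 0.0148). That call was lost without LG replicate 1 (1.24, limma adjusted p = 0.0578) and without LG replicate 3 (1.06, limma adjusted p = 0.0640). The LL vs. LG change was 0.67 (SE 0.30, 95% interval 0.02 to 1.33, limma adjusted p = 0.304). Whether the changes of the 2 hairpins differed from each other was not tested.

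Changes in arm ratio were not particular to miR-125. In DP vs. LL, 1 of the 2 miR-125 hairpins was called, beside 19.4% of the 129 hairpins, 16 of them toward the 5p and 9 toward the 3p arm. Both were called in DP vs. LG, beside 17.1% of all (16 toward the 5p and 6 toward the 3p arm). In LL vs. LG, limma called neither of the 2 and 0% of the 129, with or without a trend of the variance on abundance. At an unadjusted p under 0.05, 19 of the 129 differed there (14.7%), both miR-125 hairpins among them. Counted from the largest shift toward the 5p arm, miR-125b ranked 8th in DP vs. LL and 3rd in DP vs. LG, and miR-125a 50th and 15th. In LL vs. LG they ranked 11th and 12th. The median change over all hairpins was 0.33, 0.18 and -0.04 in DP vs. LL, DP vs. LG and LL vs. LG.

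**Figure D2:**
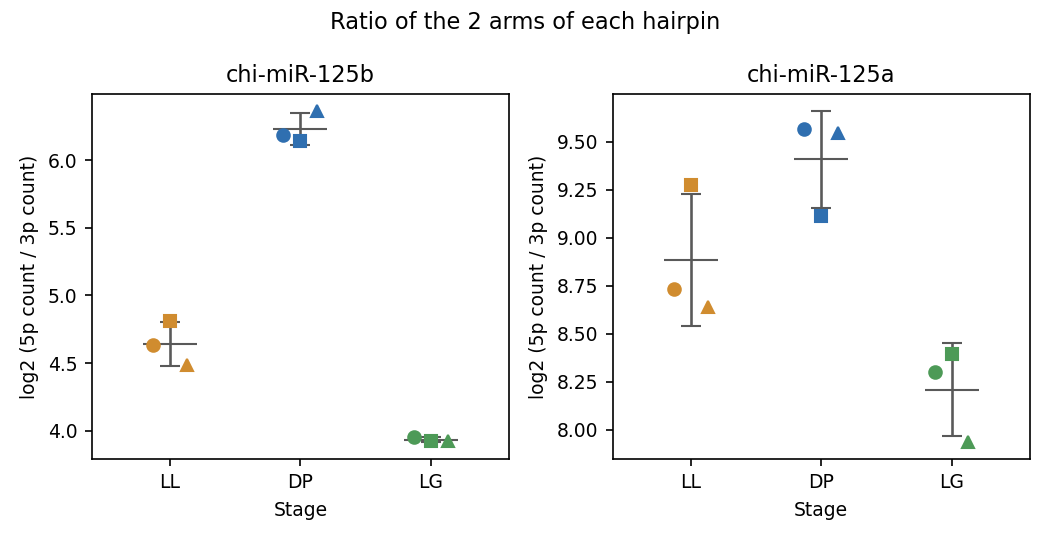
log2 of the 5p counts per 3p count of the miR-125b and miR-125a hairpins in each library. Circles, squares and triangles are replicates 1, 2 and 3, long bars are means and whiskers are SD (n = 3); the axes differ and do not start at 0. The libraries of the 3 stages did not overlap in miR-125b, whereas in miR-125a DP and LL overlapped. The LL vs. LG change was not called in either hairpin, and overlap was not counted over all hairpins.

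**Figure D3:**
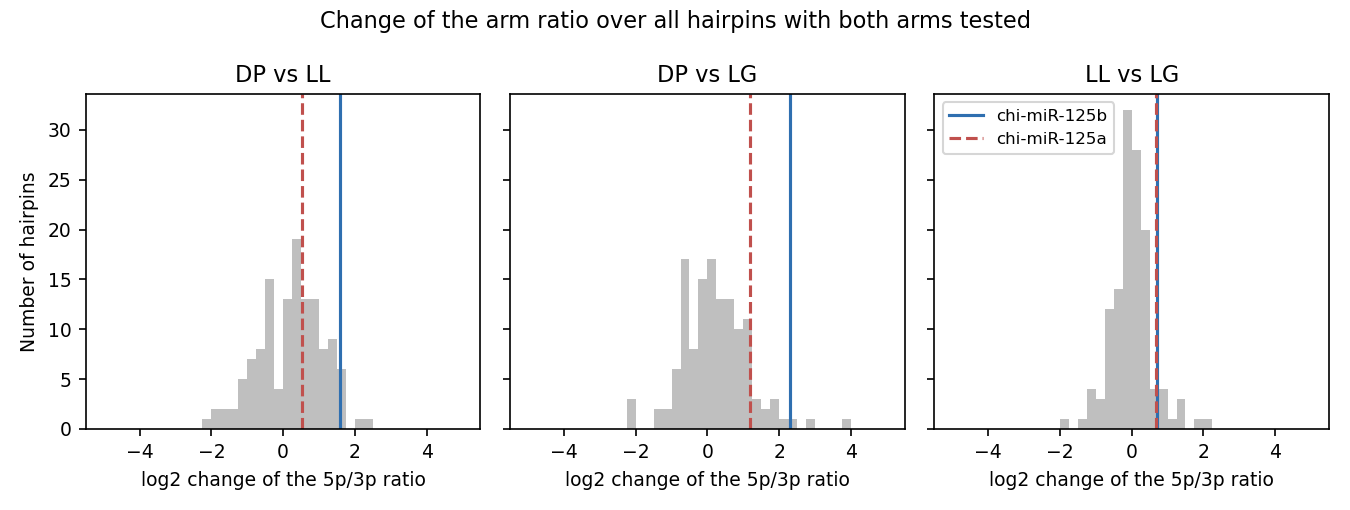
Distribution of the change of the log2 5p to 3p ratio over the 129 hairpins with both arms tested (grey bars, number of hairpins) in each comparison, with the miR-125b (solid line) and miR-125a (dashed line) changes marked. In DP vs. LG the miR-125b change of 2.30 was the 3rd from the top.

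The family as a whole took a larger share of the library in DP. The 4 arms summed to 1.39%, 1.28% and 1.57% of the counts in the DP goats, against 0.218%, 0.411% and 0.342% in LL and 0.348%, 0.330% and 0.404% in LG. No DP library overlapped the others, and LL and LG overlapped. The means were 1.41% ± 0.146 (SD, n = 3) in DP, 0.324% ± 0.0979 in LL and 0.361% ± 0.0387 in LG. An exact permutation test of the F statistic over the 280 splits of 9 libraries gave p = 0.0286 (F = 48.4). With chi-miR-148a-3p removed from the total, the means were 1.56%, 0.687% and 0.626%. Between a pair of stages, 3 libraries against 3 cannot give an exact p below 0.1 (two-sided), and that was the value for DP against LL and against LG. The 5p arms held 99.0% ± 0.0988 of the family's reads in DP, 97.3% ± 0.378 in LL and 95.4% ± 0.297 in LG (SD, n = 3).

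The ratio of the 2 guide arms was lowest in LL. There were 2.91, 3.39 and 2.88 reads of chi-miR-125b-5p per read of chi-miR-125a-5p in DP, 1.99, 1.77 and 2.17 in LL, and 2.42, 2.29 and 3.55 in LG. The LL libraries were below all others, and DP and LG overlapped through LG replicate 3. The means were 3.06 ± 0.287 (SD, n = 3), 1.97 ± 0.201 and 2.75 ± 0.691. The exact permutation test over all stages gave p = 0.0464 (F = 6.09). Without 1 library, p ranged from 0.00714 to 0.164, and it was at or above 0.05 for every library left out except LG replicate 3. Among the 3p arms, 27.7 ± 2.35 reads of chi-miR-125b-3p were counted per read of chi-miR-125a-3p in DP, 37.7 ± 2.71 in LL and 52.8 ± 4.23 in LG (SD, n = 3), values given without a test.

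The cluster partners of miR-125 in mammals are let-7a, let-7c, let-7e, miR-99a, miR-99b and miR-100, with 12 arms in the table, all tested. 1 of them, chi-miR-100-3p, had 1 to 11 counts in the LL libraries, 17 to 28 in DP and 7 to 11 in LG. It passed the filter only through DP, which fixed its direction, and is left out of the counts. Its calls were lost in 5 of 14 alternatives in DP vs. LL and in 3 of 14 in DP vs. LG. The let-7 family restrains growth and promotes differentiation, and the miR-99/miR-100 family is known to repress the growth kinase mTOR. In both DP vs. LL and DP vs. LG, 8 of the other 11 arms were called, all higher in DP (6 of 6 5p arms and 2 of 5 3p arms), beside 26.7% and 31.5% of all miRNAs. Their median log2 fold change was 1.41 and 1.40. In LL vs. LG, 0 of the 11 were called by edgeR, DESeq2 or limma-voom, beside 12.8% of all by edgeR. At an unadjusted edgeR p under 0.05 there were 0 of 11, beside 33% of all. Over the 18 alternatives, 6 to 8 of the 11 arms were called in DP vs. LL, with 6 without DP replicate 3, and 5 to 8 in DP vs. LG, with 5 without LG replicate 3.

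The neighbours of MIR125B on chromosome 1 resembled miR-125b in that their guide arms were called higher in DP and their passenger arms were not. The arms of let-7a, annotated on chromosome 5, had the same pattern, and how many of all hairpins had it was not counted. chi-let-7c-5p had 10408 ± 4287 CPM (SD, n = 3) in DP, 2582 ± 578 in LL and 3439 ± 146 in LG. Its log2 fold change was 2.01 (SE 0.31, edgeR adjusted p = 0.00105) for DP vs. LL and 1.60 (SE 0.30, edgeR adjusted p = 0.00240) for DP vs. LG. chi-miR-99a-5p, the most abundant miRNA of the DP libraries by mean CPM on library size alone, had 127436 ± 50566 TMM-scaled CPM (SD, n = 3) in DP, 36997 ± 10685 in LL and 36743 ± 2274 in LG. It was higher in DP by 1.78 (SE 0.30, edgeR adjusted p = 0.00185) and 1.79 (SE 0.30, edgeR adjusted p = 0.00130) on the log2 scale. Within DP the 3 miRNAs of this locus differed in order: chi-let-7c-5p was highest in replicate 1 (14873 CPM), chi-miR-99a-5p in replicate 2 (185359 CPM) and chi-miR-125b-5p in replicate 3 (11262 CPM).

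Neither passenger arm of these neighbours was called, which does not show that they were unchanged, and chi-let-7c-3p had only 23 to 136 counts per library. chi-let-7c-3p had log2 fold changes of 0.44 (SE 0.41, edgeR adjusted p = 0.451) for DP vs. LL and 0.31 (SE 0.41, edgeR adjusted p = 0.620) for DP vs. LG, and the latter was between -0.07 and 0.37 in the alternatives. chi-miR-99a-3p had 0.50 (SE 0.34, edgeR adjusted p = 0.301) and 0.70 (SE 0.34, edgeR adjusted p = 0.141). Without DP replicate 1 these were -0.05 and 0.08. In DP vs. LL, the arm ratio rose toward the 5p arm by 1.45 in let-7c (SE 0.43, limma adjusted p = 0.0261) and by 1.34 in miR-99a (SE 0.40, limma adjusted p = 0.0263). The let-7c call was lost in 5 of 13 alternatives: when LL replicate 2, LL replicate 3 or DP replicate 1 was left out (log2 changes from 0.92 to 1.44), without a trend (limma adjusted p = 0.0511) and with only the 2 stages in the fit (limma adjusted p = 0.0677). The miR-99a call was lost in 6 of 13: without any 1 of the LL libraries or without DP replicate 2 (0.73 to 1.42), without a trend (limma adjusted p = 0.0643) and with only the 2 stages in the fit (limma adjusted p = 0.0741). In DP vs. LG, the changes of 1.21 for let-7c and 1.12 for miR-99a missed the limit (limma adjusted p = 0.0519 for each). Here calls were gained in 4 and 3 of 13 alternatives, among them a pseudocount of 5 (limma adjusted p = 0.0436 and 0.0495), let-7c without DP replicate 2 (1.39) or DP replicate 3 (1.56), and miR-99a without DP replicate 1 (1.58). The changes also fell when 1 library was left out, to as low as 0.68 for let-7c and 0.52 for miR-99a (limma adjusted p up to 0.166 and 0.141).

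In the miR-99b and let-7e pair, which neighbours miR-125a in other mammals, both arms of both hairpins were called higher in DP. chi-let-7e-5p was higher in DP by 1.32 (SE 0.20, edgeR adjusted p = 0.00105) and 1.40 (SE 0.20, edgeR adjusted p = 0.000628) on the log2 scale in DP vs. LL and DP vs. LG. Its passenger arm chi-let-7e-3p was higher by 1.76 (SE 0.40, edgeR adjusted p = 0.00792) and 1.67 (SE 0.39, edgeR adjusted p = 0.00769), but these rested in part on DP replicate 1: without it they were 1.06 and 0.91, and the latter was no longer called. chi-miR-99b-5p and chi-miR-99b-3p were higher by 1.41 each in DP vs. LL (SE 0.37 and 0.31, edgeR adjusted p = 0.0161 and 0.00763) and by 1.49 and 1.30 in DP vs. LG (SE 0.37 and 0.31, edgeR adjusted p = 0.0109 and 0.00864). The miR-99b calls were lost in 4 and 5 of 18 alternatives for the 5p arm and in 1 and 6 for the 3p arm, mostly when a library was left out (log2 fold changes of the lost calls from 0.70 to 1.55). The arm ratios of this pair were not called. For let-7e the log2 ratio changed by -0.29 in DP vs. LL (95% interval -0.96 to 0.37, limma adjusted p = 0.445). For miR-99b it changed by -0.06 (95% interval -0.71 to 0.59, limma adjusted p = 0.874).

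chi-miR-100-5p and chi-let-7a-5p, whose genes accompany the other miR-125b gene in mammals, were also higher in DP. chi-miR-100-5p rose by 2.01 (SE 0.31, edgeR adjusted p = 0.00105) and 1.91 (SE 0.31, edgeR adjusted p = 0.00101) on the log2 scale in DP vs. LL and DP vs. LG. chi-let-7a-5p rose by 1.23 (SE 0.21, edgeR adjusted p = 0.00185) and 1.15 (SE 0.21, edgeR adjusted p = 0.00181), but the latter fell under the fold limit in 12 of 18 alternatives, 6 of them without LL replicate 1, 2 or 3, DP replicate 1 or 2, or LG replicate 3, where it was 0.85 to 0.99. In DP vs. LL, it was 0.997 and not called without DP replicate 1. Among the 6 partners, let-7a, whose 5p arm several genes share in other mammals, had the largest change of the log2 arm ratio in DP vs. LL, 1.75 (SE 0.23, limma adjusted p = 0.000253). Without 1 library it was 1.51 to 1.91, a range that overlapped those of let-7c (0.92 to 1.80) and miR-99a (0.73 to 1.80). In DP vs. LG the change of let-7a was 1.1 (SE 0.23, limma adjusted p = 0.00616), below those of let-7c and miR-99a, and the call was lost without DP replicate 2 (0.87).

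**Figure D4:**
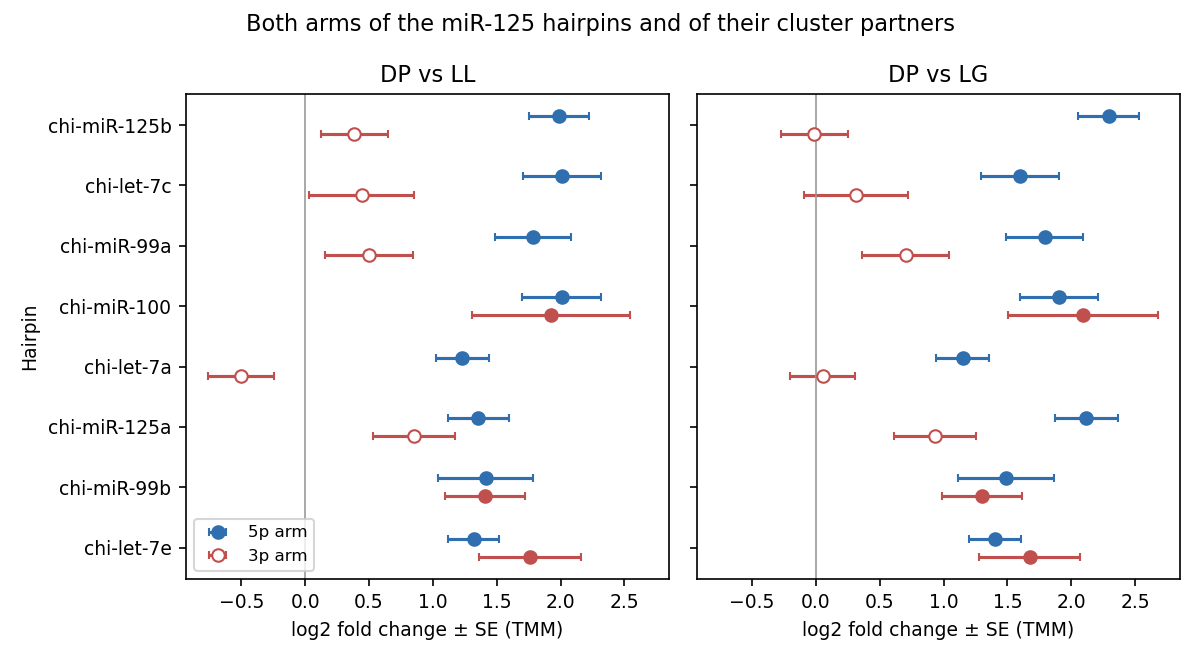
log2 fold change (TMM scaling) ± SE of the 5p arm (blue) and the 3p arm (red) of the miR-125 hairpins and their cluster partners in DP vs. LL and DP vs. LG. Filled points were called and open points were not; in miR-125b, let-7c, miR-99a and let-7a the 5p arm was called and the 3p arm was not, and in miR-99b and let-7e both were, and the called chi-miR-100-3p had passed the filter only through DP.

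The 364 known miRNAs tested other than the miR-125 arms, cluster partners included, were ordered by how alike their levels were to each arm over the 9 libraries (Pearson r of log2 CPM, a description of libraries that share their scaling). Both guide arms resembled each other (r = 0.954). The most alike to chi-miR-125b-5p were chi-miR-28-5p (r = 0.982), chi-miR-199a-3p and chi-miR-199b-3p (r = 0.981 each). The values of the 2 miR-199 arms were almost equal, and they are uncertain as separate miRNAs. For chi-miR-125a-5p they were chi-miR-10a-5p (0.975), chi-miR-193b-5p (0.965) and chi-miR-199a-3p (0.957). Since these miRNAs were picked for their likeness over the same libraries, their differences between stages follow from the choice and are given as values only. The log2 fold changes in DP vs. LL and DP vs. LG were 1.91 and 2.58 for chi-miR-199a-3p and 1.27 and 1.48 for chi-miR-28-5p.

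chi-miR-125b-3p followed its own guide arm less closely (r = 0.383) and chi-miR-125a-5p hardly at all (r = 0.170). Its most alike miRNAs were chi-miR-485-5p (r = 0.795), chi-let-7d-3p (r = 0.793) and chi-miR-1388-3p (r = 0.781). No miRNA was as close to it as those named were to either guide arm. The rare chi-miR-125a-3p had r = 0.951 with chi-miR-125b-5p and 0.878 with its own guide arm.

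Lists of miRNAs that mark cell types were summed in each library and their calls counted, beside 26.7% of all miRNAs called in DP vs. LL and 31.5% in DP vs. LG. The summed level of 8 of 9 listed epithelial miRNAs (the miR-200 and miR-183 families and miR-205) was 14060 to 22385 CPM in DP (median 19977), 35325 to 43018 in LL (median 37491) and 34932 to 38642 in LG (median 37940). Of these 8, 5 were called lower and 1 higher in DP vs. LL, and 3 lower in DP vs. LG. Of 5 stromal and smooth muscle miRNAs, all in the table, 3 were called higher in DP in each comparison, and their summed level was 47515 to 152577 CPM in DP (median 67660), 77786 to 125722 in LL (median 83366) and 57432 to 65601 in LG (median 65212). chi-miR-199a-3p, picked above for its likeness to both guide arms over these libraries, is 1 of these 5. By median, the summed level of the list was lower in DP than in LL (67660 against 83366 CPM).

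The remaining lists were the immune, muscle, endothelial and blood miRNAs. The 3 of 5 immune miRNAs in the table summed to 767 to 1935 CPM in DP (median 1410), 581 to 740 in LL (median 605) and 243 to 360 in LG (median 272). 1 was called higher in DP vs. LL and 3 in DP vs. LG. The 5 muscle miRNAs summed to 971 to 3444 CPM in DP (median 1070), 720 to 932 in LL (median 771) and 419 to 530 in LG (median 453), with 1 and 2 called higher in DP. The 2 endothelial miRNAs summed to 19028 to 31975 CPM in DP (median 28312), 15852 to 22980 in LL (median 17372) and 14716 to 16363 in LG (median 16353), with 0 and 1 called. The 3 of 4 blood miRNAs in the table summed to 122 to 1284 CPM in DP (median 576), 364 to 551 in LL (median 528) and 87.1 to 168 in LG (median 154), with 0 and 1 called higher. No marker in the table was at 0 in all libraries. The part of these cell types in the miR-125 levels was not tested.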

How the data were processed

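Small RNA libraries of 9 goat mammary glands, 3 per stage, were analysed. The authors removed adapters and low-quality reads, mapped the reads with miRDeep2 on the goat assembly ARS1.2, combined known miRNAs of miRBase with predicted ones, and deposited the counts of reads per mature miRNA without normalization. The submitters' processing notes name FastQC 0.11.9, cutadapt 4.2 and Bowtie 1.1.1. The deposited column of LL replicate 3 was read as estimated counts, since it held 2 values that were not whole, which were rounded. No count row of a miR-125 arm was equal to another row.

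Levels were tested with edgeR 4.0.16 in R 4.3.3 (TMM, 1 quasi-likelihood fit of all 9 libraries, stage as the only term) over miRNAs that reached 0.5 CPM in 3 or more libraries. Arm ratios, log2((5p count + 0.5)/(3p count + 0.5)), were tested with limma 3.58.1 (trend on the abundance of the rarer arm). Single values per library were tested with exact permutation tests in Python 3.11.15 (scipy 1.17.1). These counted F statistics at least as large over the 3 stages, and absolute differences at least as large between a pair of stages. DESeq2 1.42.0 and limma-voom were among the alternatives.

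Named miRNAs were the miR-125 arms, both arms of their cluster partners, the 3 known miRNAs most alike to each of 3 arms, chi-miR-148a-3p and marker lists. The members, lists and tests were chosen with earlier results of these data known. The lactation stages before LL were not used here.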

Additional observations from a re-analysis of the deposited data

How the results depend on the processing

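The DP calls of chi-miR-125b-5p and chi-miR-125a-5p held in each of the 18 alternatives, with log2 fold changes of 1.88 to 2.34 and 1.19 to 1.70 for DP vs. LL and 1.93 to 2.29 and 1.75 to 2.12 for DP vs. LG. The miR-125b arm ratio held in 13 of 13, at 1.51 to 1.67 and 2.23 to 2.35. On library size alone, chi-miR-125a-3p was called in DP vs. LL (1.21), chi-miR-125b-5p turned to -0.27 in LL vs. LG (-0.010 with no filter), and the median log2 fold change of all miRNAs was 0.49, -0.02 and -0.42 in DP vs. LL, DP vs. LG and LL vs. LG, with 165 higher and 59 lower, 116 and 85, and 30 and 90 calls. Without chi-miR-148a-3p in the table these calls were 81 and 95, 113 and 100, and 48 and 43, and with upper quartile scaling 100 and 81, 130 and 91, and 51 and 40. The LL vs. LG value of chi-miR-125a-3p became -0.097 with DESeq2, -0.053 with the upper quartile, -0.51 on library size, -0.11 without chi-miR-148a-3p, -0.23 with no filter, -0.17 with at least 10 counts in every library, -0.14 with only these stages, and -0.25 to 0.014 without 1 library.

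The miR-125a arm ratio in DP vs. LG was 1.06 to 1.34 without 1 library. The F statistic of the ratio of the guide arms was 3.35 to 18.5 without 1 library, and its Kruskal-Wallis statistic was 5.6 (exact permutation p = 0.05). That of the summed share was 30.2 to 142.5 without 1 library. chi-let-7c-3p in DP vs. LG was -0.072 with no filter, -0.050 with at least 10 counts in every library and -0.022 to 0.37 without 1 library, and chi-miR-99a-3p in DP vs. LL was -0.047 to 0.77. The arm ratio of let-7e was -0.53 to 0.090 in DP vs. LL and -0.37 to 0.25 in DP vs. LG, and that of miR-99b -0.42 to 0.28 and -0.26 to 0.44, without 1 library. With only the stages compared in the fit, 13, 14 and 6 hairpins had a called ratio in DP vs. LL, DP vs. LG and LL vs. LG, and 141 miRNAs were called in LL vs. LG. Without a trend, 14 were called in DP vs. LG. Without 1 library, 33 to 36 miRNAs were called in LL vs. LG when LL replicate 1 or 2 was left out, 54 and 41 without LG replicate 1 and 3, and the hairpins called were 11 and 13 in DP vs. LL without LL replicate 2 and 3, 10 to 14 in DP vs. LG without 1 LG library, and 1 and 5 in LL vs. LG without DP replicate 1 and 2. The cause was not tested.

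Each goat gave 1 library, so the replicate numbers gave no pairing by animal. The deviations of same-numbered libraries correlated with r from -0.101 to 0.214, and a shared batch was not tested. With a replicate block, 170, 222 and 88 miRNAs were called, no miR-125 call changed, the arm ratios of let-7c and miR-99a were called in DP vs. LG (1.21 and 1.12, limma adjusted p = 0.0439 and 0.0407), the level call of chi-miR-100-3p in DP vs. LL was lost (1.94, edgeR adjusted p = 0.0558), and chi-miR-125b-5p was 2.00 in DP vs. LL. The log2 fold changes of chi-miR-125a-3p rest on 28 to 121 counts per library.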
